A study of Homo sapiens with 12 samples.

Results

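The 45 genes described here act in G2 phase and mitosis, the part of the cell cycle in which a cell that has copied its DNA prepares to divide and then separates its chromosomes. They were given as a list of gene symbols and matched to the gene names of the deposited expression table, in which all 45 of 45 were found among 36433 symbols. RNA was sequenced from HMEC-1, a line of human dermal microvascular endothelial cells made immortal with the SV40 large T antigen, 48 h after lipid transfection with 50 nM of a synthetic RNA. The 4 groups were a miR-126 mimic, a miR-143 mimic, a miR-150 mimic and a non-targeting scrambled RNA as the control, with 3 libraries each, which the labels number 2 to 4. MicroRNAs repress transcripts that carry matching sites in their 3′ untranslated regions, and a mimic raises the amount of 1 of them in the cell; the labels do not say which arm of each precursor was used. By its title, the study concerns pathological angiogenesis in the retina. HMEC-1 are skin endothelial cells of 1 line, and no label says whether the libraries of a group were separate cultures. The spread on which the p-values rest may therefore be technical.

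Entry into mitosis is driven by the kinase CDK1 bound to cyclin B, which the CDC25 phosphatases switch on. Once every chromosome is attached to the spindle through its kinetochore, the anaphase-promoting complex with its activator CDC20 marks cyclin B and securin for destruction, the sister chromatids part, and the central spindle directs the cell to cleave. Most genes of this kind are transcribed late in the cycle by NF-Y at CCAAT boxes and by the MuvB complex with B-MYB and FOXM1 at cell cycle genes homology regions, whose most common form reads TTTGAA, and in resting cells the same elements hold the DREAM repressor. The large T antigen binds the retinoblastoma family of proteins, which belong to that repressive arm, and endothelial cells in culture divide while those of a mature vessel mostly do not.

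Promoters are shown for 5 of the described genes, because they hold letter matches to the elements named above. The sequences are those of RefSeq on GRCh38.p14, from 250 bases before the annotated start to 50 bases after it, written 5′ to 3′ on the strand of the gene. Capitals mark CCAAT and TTTGAA on either strand, so that ATTGG and TTCAAA are the same elements read from the other strand. PRC1 lies on the minus strand (chr15:90994486-90994785), TOP2A on the minus strand (chr17:40417847-40418146), CDC20 on the plus strand (chr1:43358731-43359030), ECT2 on the plus strand (chr3:172750476-172750775) and KIF4A on the plus strand (chrX:70289854-70290153).
PRC1: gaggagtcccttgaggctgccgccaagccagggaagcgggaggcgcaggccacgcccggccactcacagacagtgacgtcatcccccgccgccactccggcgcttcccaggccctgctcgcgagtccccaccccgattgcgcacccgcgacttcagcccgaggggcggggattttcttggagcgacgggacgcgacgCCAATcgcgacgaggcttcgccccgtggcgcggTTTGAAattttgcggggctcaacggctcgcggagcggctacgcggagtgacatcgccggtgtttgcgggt
TOP2A: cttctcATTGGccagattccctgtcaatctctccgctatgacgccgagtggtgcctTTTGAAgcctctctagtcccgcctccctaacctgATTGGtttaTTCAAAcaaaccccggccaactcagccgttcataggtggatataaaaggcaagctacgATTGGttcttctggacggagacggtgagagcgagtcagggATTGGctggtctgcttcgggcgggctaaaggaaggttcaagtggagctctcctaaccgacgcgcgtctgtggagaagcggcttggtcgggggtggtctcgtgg
CDC20: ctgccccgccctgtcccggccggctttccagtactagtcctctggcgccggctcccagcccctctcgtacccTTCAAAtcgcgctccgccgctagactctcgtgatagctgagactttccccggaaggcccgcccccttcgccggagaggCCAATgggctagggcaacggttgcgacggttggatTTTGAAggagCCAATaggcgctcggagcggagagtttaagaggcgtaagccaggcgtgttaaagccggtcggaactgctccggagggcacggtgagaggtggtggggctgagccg
ECT2: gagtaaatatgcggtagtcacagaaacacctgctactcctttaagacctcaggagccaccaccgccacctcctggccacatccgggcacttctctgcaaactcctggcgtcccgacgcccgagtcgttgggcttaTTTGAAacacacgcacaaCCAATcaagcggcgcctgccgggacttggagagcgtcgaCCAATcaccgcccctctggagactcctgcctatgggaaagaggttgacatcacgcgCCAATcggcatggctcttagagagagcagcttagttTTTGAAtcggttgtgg
KIF4A: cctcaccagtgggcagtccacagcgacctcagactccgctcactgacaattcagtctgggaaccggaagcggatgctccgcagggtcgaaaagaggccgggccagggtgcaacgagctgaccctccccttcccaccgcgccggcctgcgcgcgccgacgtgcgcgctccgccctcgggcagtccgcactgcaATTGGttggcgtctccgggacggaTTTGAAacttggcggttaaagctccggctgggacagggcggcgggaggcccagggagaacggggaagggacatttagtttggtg

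A promoter entry was matched for 38 of the 45 genes and for 9976 of the genes tested. CCAAT on either strand stood in 29 of the 38 promoters (76.3%), against 36.5% of all 9976. TTTGAA on either strand stood in 25 (65.8%), against 9.62% of all, and both motifs stood together in 22 (57.9%), against 4.01%. At least 2 copies of CCAAT were found in 19 of the 38 (50.0%) and in 13.5% of all promoters. The first base of a TTTGAA fell within 50 bases of the start in 20 of the 38 (52.6%), against 2.72% of all promoters. A CCAAT and a TTTGAA shared bases in 2 of the 38 (5.26%), against 0.0601% of all. By comparison, the E2F octamers TTTCCCGC, TTTCGCGC, TTTGCCGC and TTTGGCGC, on either strand, were found in 3 of the 38 (7.89%) and in 5.51% of all. In other lists of cell cycle genes, TTTGAA was in 9 of 20 promoters of other kinetochore and centromere genes, 7 of 16 of cohesin and condensin genes and 6 of 15 of mitotic entry and exit regulators. It was in 3 of 17 (17.6%) of both the anaphase-promoting complex list and the RB, E2F, DREAM and MuvB list, and in 1 of 30 of DNA replication and S phase genes (3.33%). CCAAT was in 70.0%, 43.8%, 73.3%, 35.3%, 41.2% and 56.7% of these 6 lists in that order. These are matches of letters in a window of fixed length, not measured binding sites.

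Expression was measured as TPM, transcript abundances scaled so that every library sums to 1000000, and the transcripts of a gene symbol were added up. Tests ran on log2(TPM + 1) for the 13750 genes that reached 1 TPM in 3 or more libraries. All 45 genes passed this filter, and their lowest value in any library was 9.01 TPM, for KIF14. A gene is called when its p-value from limma, adjusted by Benjamini-Hochberg over all 13750 genes, lies under 0.05. How many reads stand behind a TPM value is unknown, and intervals that need read depth are not given. All 9 endothelial markers (among them PECAM1, CDH5, VWF and ENG) passed the filter. They summed to between 1340 and 1850 TPM per library with the miR-126 mimic, 1350 and 2200 TPM with the miR-143 mimic, 1020 and 1790 TPM with the miR-150 mimic, and 1610 and 2290 TPM in the control. Their median log2 fold changes against the control were -0.21, -0.06 and -0.55 for the 3 mimics in that order, beside 0.10, -0.04 and -0.11 for all genes. ENG, the TGF-beta co-receptor endoglin, was the 1 called, lower with the miR-150 mimic by 0.56 (adjusted p = 0.00674; 0.0620 with each library centred on its median gene and 0.137 with only these 2 groups in the fit). The part of the endothelial markers in the results was not tested. The marker lists of epithelium and leukocytes summed to at most 4.09 TPM and that of fibroblasts and pericytes to at most 127 TPM. Replicate 4 of the miR-143 mimic and replicate 4 of the miR-150 mimic favoured short transcripts across all genes, unlike the other 10, and are called the short-transcript pair here; values without this pair are given where they change a call. In a bulk library, fewer cells in mitosis and less RNA per cell cannot be told apart.

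As a whole, the 45 genes were expressed at about the same level in all 4 groups. Their summed level was 5962, 5343.5 and 5768 TPM in miR-126 mimic libraries, 6132, 5462.5 and 5317 TPM in miR-143 mimic libraries, 6303, 5816 and 5199.5 TPM in miR-150 mimic libraries, and 5898, 5592 and 5819 TPM in control libraries. Their share of all TPM ran between 0.521% and 0.631%, and every mimic group overlapped the control. The most abundant were CCNB1, cyclin B1, with a mean of 393 TPM over the 12 libraries, PTTG1, securin, with 376 TPM, and PRC1, which bundles the microtubules of the central spindle, with 264 TPM. KIF14, a kinesin of cytokinesis, was the least abundant at 23.1 TPM.

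**Figure D1:**
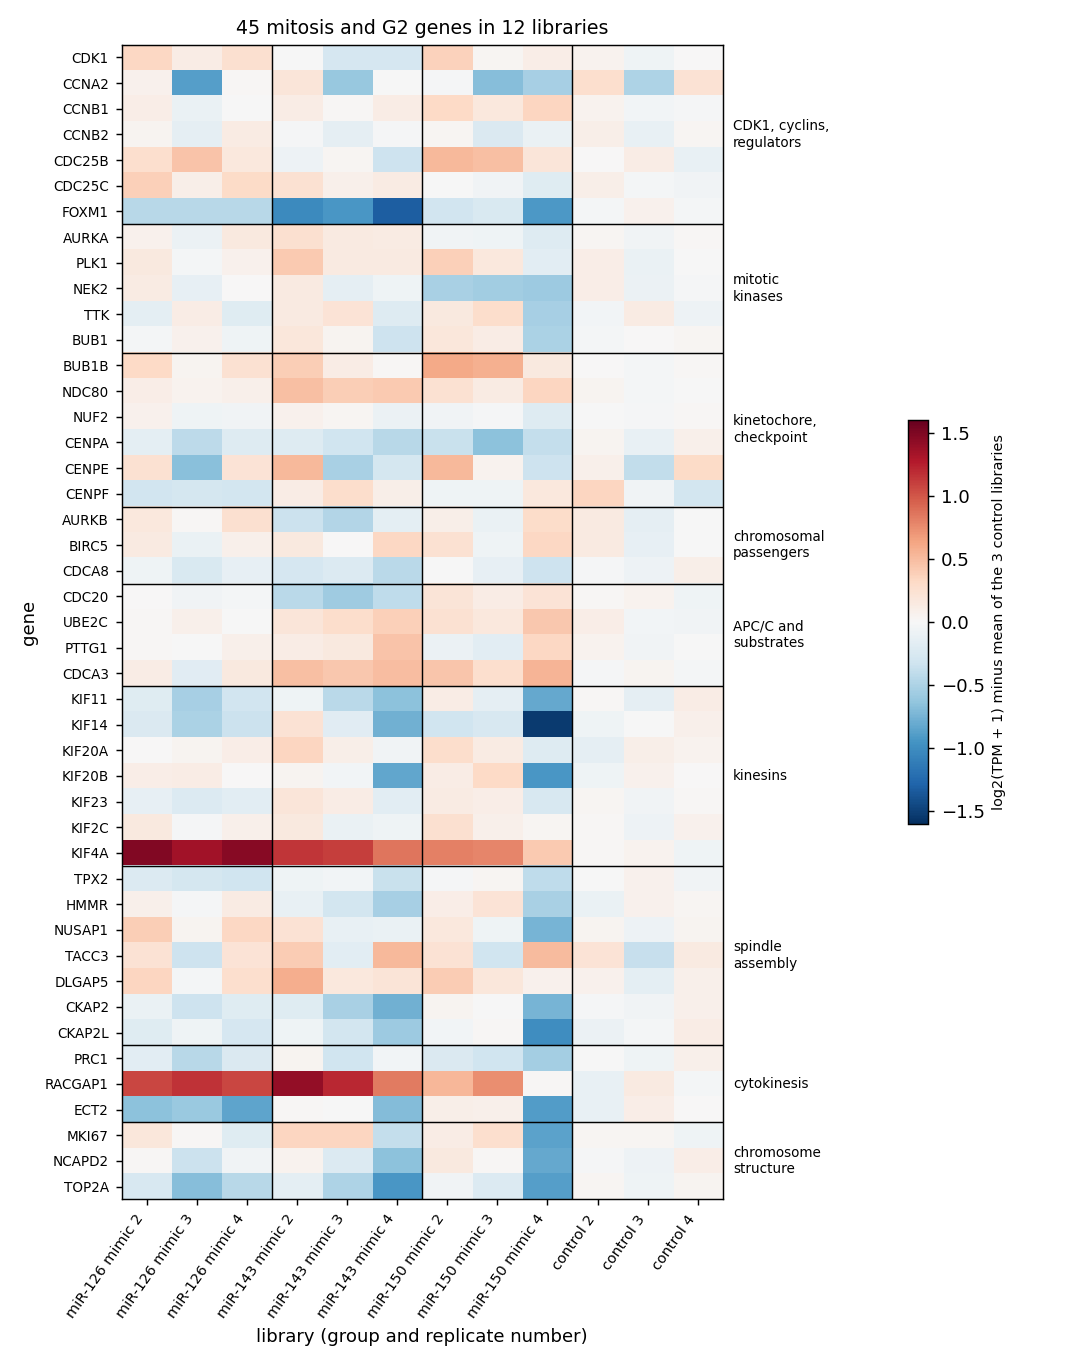
Difference of log2(TPM + 1) from the mean of the 3 control libraries (colour) for each of the 45 genes (vertical axis, grouped by role) in each of the 12 libraries (horizontal axis, with replicate numbers). KIF4A stands above the controls in all 9 mimic libraries and FOXM1 below them in all 9, and RACGAP1 is above them in all miR-126 and miR-143 libraries. Most other genes stay close to 0, apart from many blue cells in replicate 4 of the miR-143 and miR-150 mimics. In those columns some genes with short transcripts lie above the controls.

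The typical gene of the list moved little. The median log2 fold change over the 45 genes was 0.00 for the miR-126 mimic against control, -0.02 for the miR-143 mimic and -0.06 for the miR-150 mimic, beside medians over all 13750 genes of 0.10, -0.04 and -0.11. With each library centred on its median gene, the medians of the 45 genes were -0.13, 0.03 and 0.06 and those of all genes -0.04, 0.01 and 0.02. Under both scalings the median of the 45 genes lay 0.10 below that of all genes for miR-126 and 0.02 and 0.04 above it for miR-143 and miR-150; after quantile normalization the differences were -0.03, -0.02 and 0.04. The absolute log2 fold change was under 0.5 for 42, 41 and 42 of the 45 in these comparisons. Against the control, the miR-126 mimic had 2 of the 45 called higher and 0 called lower (4.44%), beside 5.11% of all genes (3.37% higher and 1.73% lower), and 6 of the 45 at an unadjusted p under 0.05. With the libraries centred it had 2 higher and 4 lower (ECT2, FOXM1, TOP2A and TPX2), and the same 6 were called without the short-transcript pair and with only the 2 groups compared in the fit. In each of these fits more of all genes were called too, as the closing section gives. The miR-143 mimic had 3 called higher and 2 called lower (11.1%), beside 3.32% of all genes (1.84% and 1.48%), and 2 higher and 1 lower with the libraries centred or with only the 2 groups in the fit, where CDC20 and NDC80 were not called. The miR-150 mimic had 1 called higher and 1 called lower (4.44%), beside 3.32% of all genes (1.08% and 2.23%); it had 4 higher (KIF4A, RACGAP1, BUB1B and CDC25B) and 0 lower with the libraries centred, 2 (KIF4A and BUB1B) and 0 after quantile normalization, and 0 of either with only the 2 groups in the fit, without miR-150 mimic replicate 2 or without control replicate 2 or 4. It had 0 higher and 1 lower without miR-150 mimic replicate 3 or control replicate 3. The miR-143 counts were 2 higher and 1 lower without miR-143 mimic replicate 3 or control replicate 2. In the main fit, the shares for miR-126 and miR-150 are near those of all genes. The percentages of called genes here belong to the main fit alone, and counts from other fits cannot be set against them. The groups of libraries did not overlap for 17, 17 and 14 of the 45 (37.8%, 37.8% and 31.1%), beside 34.1%, 25.3% and 21.5% of all genes. All 3 comparisons use the same 3 control libraries.

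**Figure D2:**
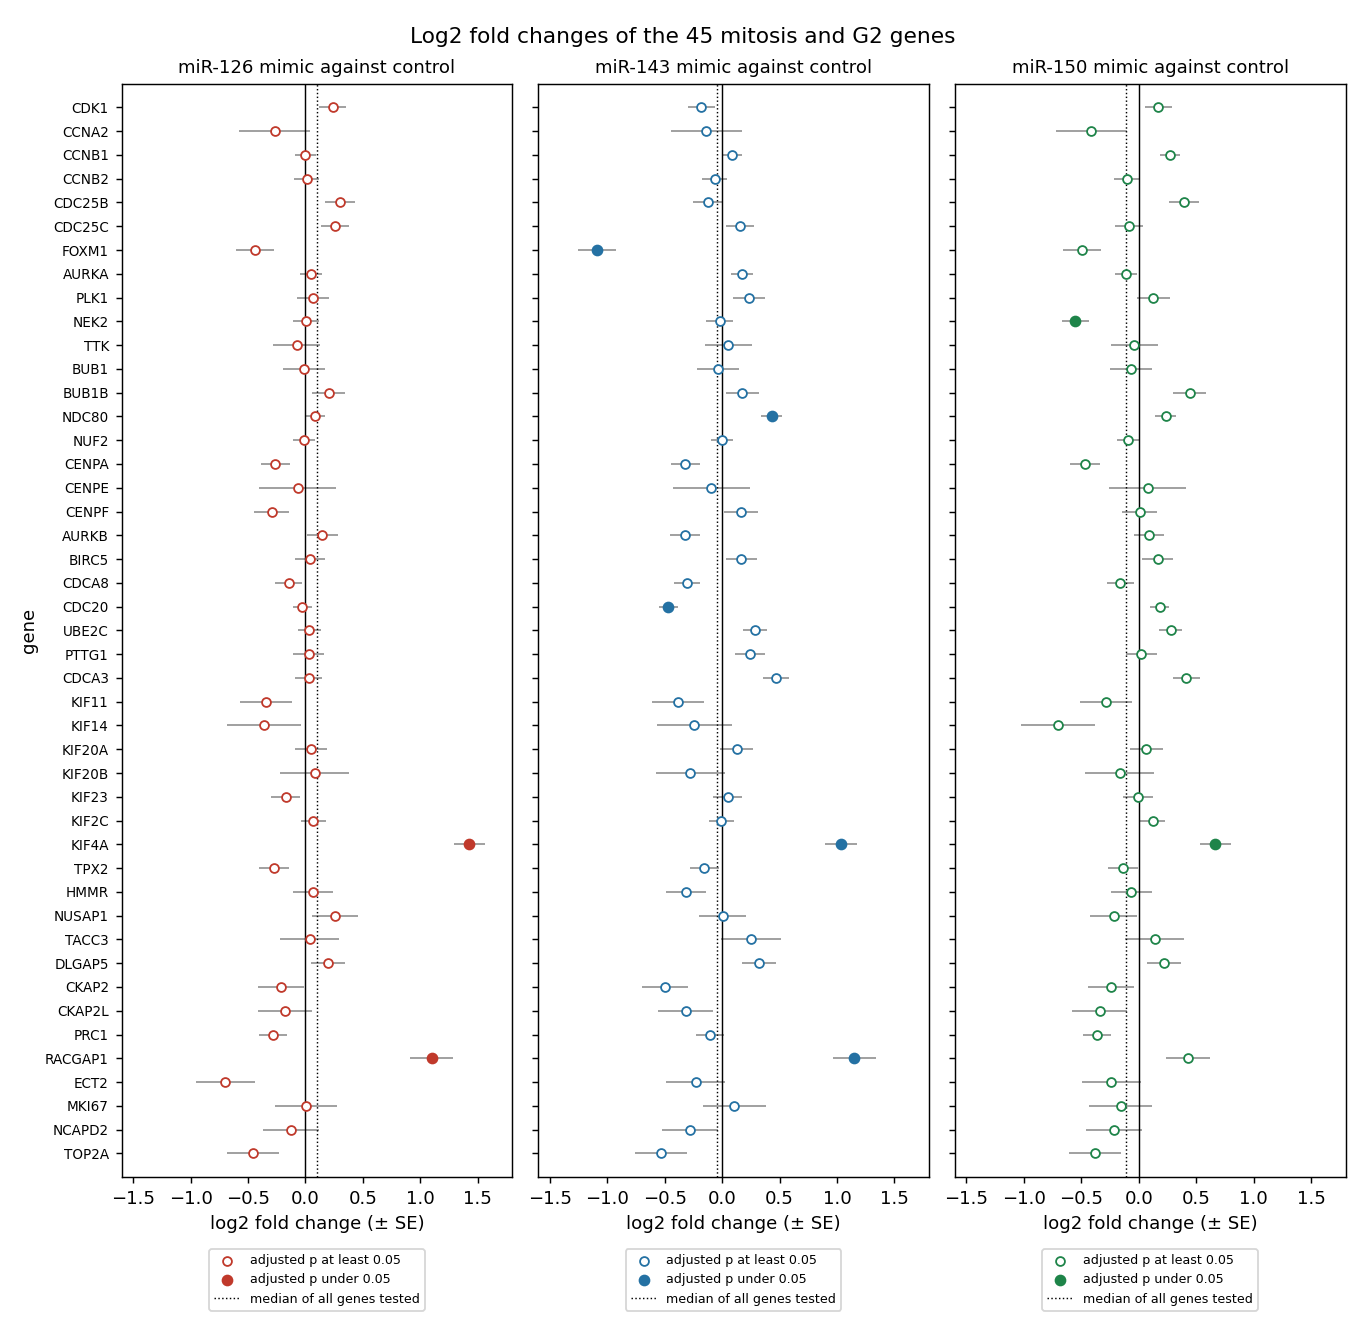
Log2 fold change with its standard error (horizontal axis) of each of the 45 genes (vertical axis) for each mimic against the control. Filled points passed the adjusted p threshold and the dotted line is the median of all 13750 genes tested; KIF4A, RACGAP1 and FOXM1 lie farthest from 0 among the filled points.

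The kinesins are motors that walk along or take apart spindle microtubules. Of the 7 measured here, 1 was called against the control in the main fit, beside the shares of all genes given above. KIF4A, a chromosome-bound kinesin that shortens the overlap of microtubules in the central spindle, lies at chrX:70290090-70420832 on the plus strand (GRCh38, GENCODE 29). It measured 59.8, 54.2 and 59.1 TPM in miR-126 mimic libraries, 47.1, 46.2 and 38.4 TPM in miR-143 mimic libraries, 37.1, 36.6 and 28.1 TPM in miR-150 mimic libraries, and 21.1, 21.6 and 19.9 TPM in control libraries. All 9 mimic libraries lay above all 3 control libraries, and the 3 miR-126 libraries lay above the other 6. The means were 57.7 ± 3.02, 43.9 ± 4.80 and 33.9 ± 5.06 TPM with the mimics in that order and 20.8 ± 0.904 TPM in the control (SD, n = 3 each). KIF4A rose with the miR-126 mimic by 1.43 ± 0.136 on the log2 scale (SE; limma adjusted p = 0.000251) and with the miR-143 mimic by 1.03 (adjusted p = 0.00255). Both calls held in all 6 fits that left out 1 library of either group. It rose with the miR-150 mimic by 0.67 (adjusted p = 0.0231), a call that was lost without miR-150 mimic replicate 2 (adjusted p = 0.0789) or 3 (0.0541) and without control replicate 2 (0.0942), 3 (0.0544) or 4 (0.119), or with only the 2 groups in the fit (0.188), while without the short-transcript pair the adjusted p was 0.00208. A single transcript carried 96.0% of the gene's TPM. Its near copy KIF4B was listed at no more than 0.143 TPM in any library, and 77 exon bases overlap PDZD11 on the other strand, whose reads can be told apart only if counting used strand, which is not given in the sources used here.

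KIF14 had the lowest fold change of the kinesins with the miR-150 mimic. It measured 22.2, 23.3 and 9.01 TPM in miR-150 mimic libraries, against 26.6, 27.8 and 29.6 TPM in control libraries. The groups did not overlap, and replicate 4, which favours short transcripts, was far below the other 2 miR-150 libraries. The log2 difference was -0.70 (adjusted p = 0.295), and -0.29 without the short-transcript pair, so KIF14 was not called. KIF11, KIF20A, KIF20B, KIF23 and KIF2C were not called either, with log2 fold changes between -0.39 and 0.13 against the control in the 3 mimics.

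Of the 3 genes of the central spindle and of cleavage, only RACGAP1 was called against the control in the main fit. RACGAP1 encodes the GTPase-activating subunit of centralspindlin, which binds KIF23 and recruits ECT2, and lies at chr12:49976923-50033136 on the minus strand. It measured 123, 131 and 124 TPM in miR-126 mimic libraries, 156, 136 and 105 TPM in miR-143 mimic libraries, 84.9, 97.8 and 58.8 TPM in miR-150 mimic libraries, and 53.4, 64.6 and 57.2 TPM in control libraries. All miR-126 and miR-143 libraries were above all controls, and miR-150 mimic replicate 4 fell among the controls. RACGAP1 rose with the miR-126 mimic by 1.10 ± 0.187 on the log2 scale (SE, n = 3 each; limma adjusted p = 0.00752) and with the miR-143 mimic by 1.15 (adjusted p = 0.00703). In the miR-150 mimic the difference was 0.43 (adjusted p = 0.263), and 0.64 (adjusted p = 0.0144) without the short-transcript pair. The 3 leading transcripts carried 46.3%, 20.9% and 20.5% of its TPM. The processed copy RACGAP1P was listed at no more than 0.0578 TPM.

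ECT2, the exchange factor that activates RhoA at the cleavage furrow, and PRC1 were not called against the control in the main fit. ECT2 measured 80.5, 83.8 and 70.5 TPM in miR-126 mimic libraries, against 118, 137 and 128 TPM in control libraries. The groups did not overlap, and the log2 difference was -0.70 (adjusted p = 0.155). With the replicate number as a block, taken to pair the libraries of these 2 groups, the adjusted p was 0.0300, and without the short-transcript pair it was 0.00191. In the other 2 mimics ECT2 measured 128, 126 and 77.9 TPM (miR-143) and 136, 135 and 68.1 TPM (miR-150), and in both groups replicate 4 was far below the others. PRC1 measured 266, 219 and 253 TPM in miR-126 mimic libraries, 308, 239.9 and 288 TPM in miR-143 mimic libraries, 255, 238 and 204 TPM in miR-150 mimic libraries, and 297, 284 and 314 TPM in control libraries. All miR-126 and miR-150 libraries were below the controls, with log2 differences of -0.28 (adjusted p = 0.238) and -0.36 (adjusted p = 0.147). PRC1 shares 3181 exon bases with AC068831.7 on the same strand, so reads between the 2 are uncertain.

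**Figure D3:**
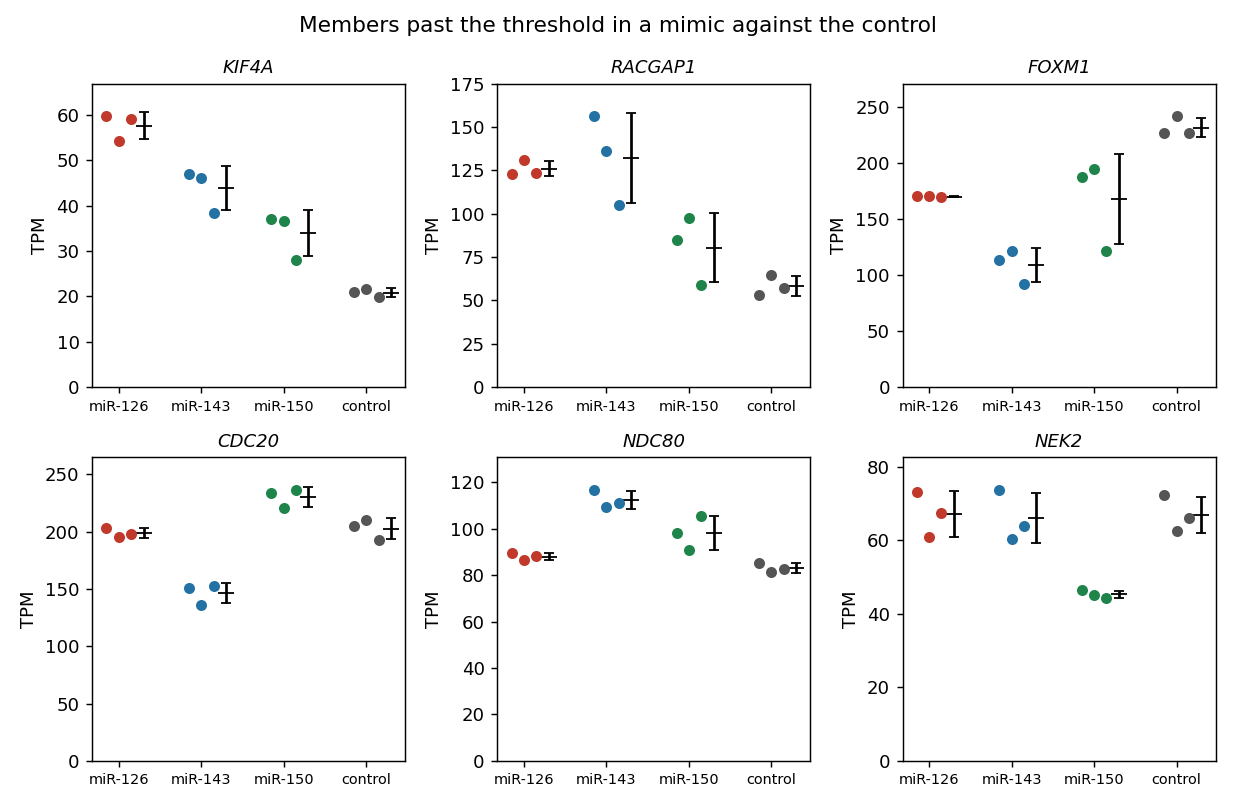
TPM (vertical axis, from 0) of the 6 genes called in a mimic against the control, with a point per library and a bar for the mean ± SD of each group of 3. KIF4A is high in all mimic libraries and RACGAP1 in all miR-126 and miR-143 libraries, FOXM1 is low in all mimics, CDC20 is low and NDC80 high in the miR-143 mimic, and NEK2 is low in the miR-150 mimic.

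Among CDK1, its cyclins and their regulators, 1 of 7 genes was called against the control in the main fit. FOXM1, the forkhead factor that activates G2 and mitosis genes, lies at chr12:2857681-2877155 on the minus strand. It measured 170.5, 170.0 and 169 TPM in miR-126 mimic libraries, 114, 121 and 92.3 TPM in miR-143 mimic libraries, 187, 195 and 121 TPM in miR-150 mimic libraries, and 226, 242 and 226 TPM in control libraries. All 9 mimic libraries were below all controls, and the 3 miR-143 libraries were the lowest of the 12, with miR-150 mimic replicate 4 just above them. FOXM1 fell with the miR-143 mimic by 1.09 ± 0.165 on the log2 scale (SE, n = 3 each; limma adjusted p = 0.00527), a call that held in all 6 fits without 1 library and without the short-transcript pair (adjusted p = 0.000497). With the miR-126 mimic the difference was -0.44 (adjusted p = 0.158, 0.0411 with the replicate block and 0.00359 without the short-transcript pair, where FOXM1 was called lower), and with the miR-150 mimic it was -0.49 (adjusted p = 0.142). FOXM1 shares 781 exon bases with ITFG2 on the other strand, a gene at a mean of 17.3 TPM.

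The kinase and its cyclins were not called against the control in the main fit. CCNB1 measured 395, 342 and 367 TPM in miR-126 mimic libraries, 398, 373 and 399 TPM in miR-143 mimic libraries, 457, 413 and 465 TPM in miR-150 mimic libraries, and 384, 356 and 364 TPM in control libraries. The miR-150 libraries were the 3 highest of the 12 and did not overlap the controls, with a log2 difference of 0.27 ± 0.0883 (adjusted p = 0.126). CDK1 averaged 243 ± 18.5 TPM with the miR-126 mimic and 206 ± 8.91 TPM in the control (SD, n = 3 each), which differ by 0.24 in log2 (adjusted p = 0.300, and 0.0465 with the replicate block). CDC25B, a phosphatase that activates CDK1 at the centrosome, averaged 267 ± 26.6 TPM with the miR-126 mimic and 217 ± 17.9 TPM in the control, a difference of 0.30 (adjusted p = 0.238, and 0.0169 with the block). Its difference was larger with the miR-150 mimic, at 287 ± 34.6 TPM without overlap with the control (0.40 in log2). It was not called there in the main fit, but was called higher with the libraries centred, without the short-transcript pair and with the block. With the block, the miR-126 mimic had 4 of the 45 genes called higher (KIF4A, RACGAP1, CDK1 and CDC25B) and 2 lower (FOXM1 and ECT2), where 11.8% and 5.11% of all genes were called higher and lower.

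Of the anaphase-promoting complex and its substrates among the 45, 1 gene was called against the control in the main fit. CDC20, the activator that the spindle checkpoint holds back, measured 151, 136 and 153 TPM in miR-143 mimic libraries, against 205, 210.5 and 193 TPM in control libraries. It measured 204, 195 and 198 TPM in miR-126 mimic libraries and 234, 220.3 and 236 TPM in miR-150 mimic libraries. The 3 miR-143 libraries were the lowest of the 12 and the 3 miR-150 libraries the highest. CDC20 fell with the miR-143 mimic by 0.47 ± 0.0852 on the log2 scale (SE, n = 3 each; limma adjusted p = 0.0128). The call was lost without miR-143 mimic replicate 3 (adjusted p = 0.0580) or control replicate 2 (0.0759) and held in the other 4 fits without 1 library. It was also lost with the libraries centred (0.180) and with only the 2 groups in the fit (0.0597). PTTG1, whose protein guards separase, measured 358, 354 and 374 TPM in miR-126 mimic libraries, 386, 394 and 486 TPM in miR-143 mimic libraries, 331, 315 and 447 TPM in miR-150 mimic libraries, and 369, 341 and 354 TPM in control libraries. Both values above 400 TPM came from the short-transcript pair, and PTTG1, the shortest of the 45 at 725 bases, was not called. UBE2C, the conjugating enzyme of the complex, and CDCA3 were not called. CDCA3 averaged 98.2 ± 2.21 TPM with the miR-143 mimic and 70.6 ± 2.00 TPM in the control, without overlap (log2 difference 0.47, adjusted p = 0.0511).

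Of the 6 kinetochore and checkpoint genes, only NDC80 was called against the control in the main fit, in 1 comparison. NDC80, the subunit that grips microtubules, measured 117, 109 and 111 TPM in miR-143 mimic libraries, 89.4, 86.4 and 88.3 TPM in miR-126 mimic libraries, 98.2, 90.7 and 105 TPM in miR-150 mimic libraries, and 85.3, 81.2 and 82.8 TPM in control libraries. All 9 mimic libraries were above the controls, the miR-143 libraries by the most. NDC80 rose with the miR-143 mimic by 0.43 ± 0.0904 on the log2 scale (SE, n = 3 each; limma adjusted p = 0.0259), but the call was lost in each of the 6 fits without 1 library: leaving out replicate 2, 3 or 4 of the miR-143 mimic gave an adjusted p of 0.0889, 0.0646 and 0.0911, and leaving out control replicate 2, 3 or 4 gave 0.0971, 0.0827 and 0.117. It was also lost with the libraries centred (0.134) and with only the 2 groups in the fit (0.0711). Its partner NUF2 had log2 fold changes between -0.09 and 0.00 against the control and was not called. BUB1B, the checkpoint protein BubR1, measured 107, 104 and 78.3 TPM in miR-150 mimic libraries, against 70.2, 68.7 and 71.2 TPM in control libraries. The groups did not overlap, and the log2 difference was 0.44 (adjusted p = 0.127). Without the short-transcript pair it was 0.59 (adjusted p = 0.0219). CENPA, the histone variant of centromeres, averaged 41.1 ± 4.70 TPM with the miR-150 mimic and 56.9 ± 4.05 TPM in the control, a log2 difference of -0.46 (adjusted p = 0.0770).

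Of the 5 mitotic kinases, only NEK2 was called against the control in the main fit. NEK2 encodes a kinase that splits the centrosomes before mitosis. It measured 46.4, 45.2 and 44.4 TPM in miR-150 mimic libraries, 73.2, 60.8 and 67.3 TPM in miR-126 mimic libraries, 73.7, 60.5 and 63.8 TPM in miR-143 mimic libraries, and 72.3, 62.5 and 65.9 TPM in control libraries. The 3 miR-150 libraries were the lowest of the 12, lay within 3 TPM of each other and overlapped no other group. NEK2 fell with the miR-150 mimic by 0.55 ± 0.115 on the log2 scale (SE, n = 3 each; limma adjusted p = 0.0255), and by 0.53 (adjusted p = 0.0402) without the short-transcript pair. The call was lost without miR-150 mimic replicate 2 (adjusted p = 0.0625) and without control replicate 2 (0.130) or 4 (0.107). It was also lost with the libraries centred (0.149), after quantile normalization (0.0602) and with only the 2 groups in the fit (0.161). AURKA, PLK1, TTK and BUB1 had log2 fold changes between -0.11 and 0.24 against the control and were not called.

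The other roles held no gene called against the control in the main fit. The chromosomal passengers AURKB, BIRC5 and CDCA8, which correct faulty attachments, had log2 fold changes between -0.32 and 0.17. The 7 spindle assembly genes TPX2, HMMR, NUSAP1, TACC3, DLGAP5, CKAP2 and CKAP2L ran between -0.49 and 0.32. Of these 10 genes, 0 were called against the control by limma; at an unadjusted p under 0.05 there were 0 with the miR-126 mimic, 3 with the miR-143 mimic and 0 with the miR-150 mimic. TPX2, which starts spindle microtubules near chromosomes, had a log2 difference of -0.27 with the miR-126 mimic (adjusted p = 0.274) and was called lower without the short-transcript pair (0.0279) and with the libraries centred (0.0249). Of the chromosome structure genes, TOP2A, the topoisomerase that untangles sister chromatids, measured 248, 185 and 218 TPM in miR-126 mimic libraries, 266, 210.4 and 155 TPM in miR-143 mimic libraries, 285, 256 and 161 TPM in miR-150 mimic libraries, and 303, 283 and 305 TPM in control libraries. All miR-126 and miR-143 libraries were below the controls, with log2 differences of -0.46 (adjusted p = 0.297, and 0.0405 without the short-transcript pair, where TOP2A was called lower) and -0.53 (adjusted p = 0.264, and a difference of -0.33 without the pair). MKI67, the proliferation marker Ki-67, averaged 77.0 ± 9.83 TPM with miR-126, 84.4 ± 22.4 TPM with miR-143, 72.2 ± 26.7 TPM with miR-150 and 76.4 ± 3.35 TPM in the control.

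Set directly against each other in the main fit, the mimics had few of these genes called. The miR-126 mimic against the miR-143 mimic had 1 gene called higher and 0 lower, beside 1.46% and 1.05% of all genes: CDC20 was higher by 0.44 (adjusted p = 0.0228), a call lost in each of the 6 fits without 1 library. With the libraries centred, CDC20 was higher by 0.25 and not called (adjusted p = 0.468), and FOXM1 was called higher and KIF23 lower. The miR-126 mimic against the miR-150 mimic had 2 called higher and 0 lower, beside 3.11% and 0.800% of all genes: KIF4A was higher by 0.76 (adjusted p = 0.0126) and NEK2 by 0.55 (adjusted p = 0.0241). KIF4A lost the call without miR-126 mimic replicate 2 (adjusted p = 0.0720) or 4 (0.0667), and NEK2 without miR-126 mimic replicate 2 (0.130) or 4 (0.103) or miR-150 mimic replicate 2 (0.0558). With the libraries centred, the difference of KIF4A was 0.49 (adjusted p = 0.0194) and that of NEK2 was 0.29 (0.337), so NEK2 was not called, nor was it after quantile normalization (0.121); centred, BUB1B, ECT2, KIF23 and TPX2 were called lower. The miR-143 mimic against the miR-150 mimic had 1 called higher and 1 lower, beside 1.59% and 0.604% of all genes, and under either other scaling RACGAP1 was called higher and CDC20, CDC25B and FOXM1 lower. CDC20 was lower in the miR-143 mimic by 0.65 (adjusted p = 0.00296) in all 6 fits without 1 library, and at an adjusted p of 0.176 with only these 2 groups in the fit. NEK2 was higher in the miR-143 mimic by 0.53 (adjusted p = 0.0378), lost in each of the 6 fits and, without the short-transcript pair, at an adjusted p of 0.0895; it was not called with the libraries centred (0.178) or after quantile normalization (0.102). Without the pair, AURKB, CDC20 and FOXM1 were called higher and ECT2, KIF23 and NDC80 lower in the miR-126 mimic than in the miR-143 mimic, KIF4A, NEK2 and RACGAP1 higher and ECT2 lower in the miR-126 mimic than in the miR-150 mimic, and RACGAP1 higher and CDC20 and FOXM1 lower in the miR-143 mimic than in the miR-150 mimic. The percentages of all genes above are those of the main fit and do not apply to fits without the pair or with the libraries centred. With only the 2 groups of a comparison in the fit, limma called 0 of the 45 in each of the 3, with 12, 5 and 7 at an unadjusted p under 0.05. The replicate number was taken to pair the libraries in these 3 comparisons, and with it as a block 8 genes were called between miR-126 and miR-143 (11.0% of all genes), 6 between miR-126 and miR-150 (18.9%) and 7 between miR-143 and miR-150 (9.75%). With the block, FOXM1 was higher in the miR-126 mimic than in the miR-143 mimic by 0.64 (adjusted p = 0.0129, against 0.0718 without it) and lower in the miR-143 mimic than in the miR-150 mimic by 0.60 (adjusted p = 0.0193, against 0.102). RACGAP1 was then higher in the miR-126 mimic (0.67, adjusted p = 0.0143) and in the miR-143 mimic (0.72, adjusted p = 0.0149) than in the miR-150 mimic.

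Seed matches were looked up in the 3′ untranslated regions because miRNAs pair with sites there. Mature sequences from RefSeq (GRCh38.p14) were matched for miR-126 and miR-143, and the 3p arms are shown with bases 2 to 8, the seed, in capitals. No mature sequence of miR-150 was found in the source used, so no site of it was looked up. Sites of the other arms of miR-126 and miR-143 were not looked up either. The miR-126 arm lies at chr9:136670653-136670674 and the miR-143 arm at chr5:149428978-149428998, both on the plus strand.
hsa-miR-126-3p: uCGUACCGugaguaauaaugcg
hsa-miR-143-3p: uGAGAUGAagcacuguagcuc
The 3′ untranslated region of each gene's most abundant coding transcript was used, for 44 of the 45 genes and 12000 genes in all, on the strand of the transcript. CGGTACG, the match to the miR-126 seed, was in 0 of the 44 and in 0.192% of all. TCATCTC, the match to the miR-143 seed, was in 4 of the 44 (9.09%), against 10.55% of all. None of these 4 genes was called lower with the miR-143 mimic in the main fit, where 2 of the 45 were. Whether the sites act was not tested.
An earlier scan of these same libraries singled out GGTTGTG as the 7-base word whose genes were lowest in the controls, so its presence here is a description and no separate evidence. It was in 3 of the 44 (6.82%), against 7.55% of all, namely BIRC5, KIF4A and RACGAP1. The 2 genes that rose most with the miR-126 and miR-143 mimics carry it, at chrX:70420686-70420714 (plus strand) and chr12:49989981-49990009 (minus strand), with the 7 bases in capitals.
KIF4A: ctcaggaatgaGGTTGTGatctttcctgt
RACGAP1: agtatggaattGGTTGTGattctttttgg
BIRC5, which holds it too, measured 118, 99.6 and 114 TPM in miR-126 mimic libraries, 120.0, 108 and 135 TPM in miR-143 mimic libraries, 127, 103 and 135 TPM in miR-150 mimic libraries, and 118, 97.8 and 107 TPM in control libraries. Those groups overlapped, and BIRC5 was not called in any comparison.

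Other genes of the same machinery were taken from lists that share no gene with the 45. In the RB, E2F, DREAM and MuvB list (18 of 19 genes tested), the miR-143 mimic had 0 called higher and 2 lower, the miR-126 mimic 1 higher and 1 lower, and the miR-150 mimic 0 of either by limma, with 2 at an unadjusted p under 0.05. Over all genes, 5.11%, 3.32% and 3.32% were called with miR-126, miR-143 and miR-150, for this list and the next ones. MYBL2, B-MYB, the partner of MuvB that acts before FOXM1 joins, measured 108, 127 and 112 TPM in miR-143 mimic libraries, against 204, 204 and 208 TPM in control libraries. The groups were far apart, and MYBL2 fell by 0.83 ± 0.0853 on the log2 scale (SE, n = 3 each; limma adjusted p = 0.000644) in all 6 fits without 1 library. TFDP1, the E2F partner DP1, fell with the miR-143 mimic by 0.45 (adjusted p = 0.0286) and with the miR-126 mimic by 0.38 (adjusted p = 0.0448). LIN52, a MuvB subunit, rose with the miR-126 mimic by 0.58 (adjusted p = 0.0336). TFDP1 lost its call with the miR-143 mimic in 5 of 6 fits without 1 library (adjusted p between 0.0835 and 0.141, all but the fit without miR-143 mimic replicate 2), and TFDP1 and LIN52 lost theirs with the miR-126 mimic in all 6 (between 0.0709 and 0.181). TFDP1 was also not called with the miR-143 mimic with the libraries centred (0.0981) or with only the 2 groups in the fit (0.0761).

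In the list of 17 anaphase-promoting complex genes, CDC26, a small subunit, was the 1 called against the control. It measured 24.4, 36.5 and 33.6 TPM in miR-143 mimic libraries, against 64.0, 68.2 and 60.2 TPM in control libraries. It fell by 1.02 (limma adjusted p = 0.00635) in all 6 fits without 1 library, and 208 of its exon bases overlap PRPF4 on the other strand. In the list of 18 cohesin and condensin genes, SMC3, a ring subunit of cohesin, was the 1 called. It measured 54.7, 58.7 and 41.2 TPM in miR-150 mimic libraries, against 92.0, 88.6 and 91.9 TPM in control libraries. SMC3 fell by 0.82 (adjusted p = 0.00830, 0.0523 without control replicate 4 and 0.109 with only the 2 groups in the fit). Without the short-transcript pair 3 genes of the list were called higher with the miR-126 mimic, where more of all genes were called too. In the list of 19 regulators of mitotic entry and exit, ENSA, which inhibits the phosphatase PP2A-B55 when phosphorylated and so sustains mitosis, was the 1 called. It measured 107, 124 and 107 TPM in miR-150 mimic libraries, against 219.7, 193 and 218 TPM in control libraries. ENSA fell by 0.89 (adjusted p = 0.00225) in all 6 fits without 1 library. Of 24 other kinetochore and centromere genes, 0 were called by limma in the 3 comparisons with the control, with 1 at an unadjusted p under 0.05 in each.

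The list of 38 DNA replication and S phase genes, the phase before G2, had 2 called higher and 1 lower with the miR-126 mimic, 1 and 0 with the miR-143 mimic, and 2 and 1 with the miR-150 mimic, beside 5.11%, 3.32% and 3.32% of all genes. Its medians were 0.22, 0.09 and -0.000883, beside the medians of all genes given above. RPA2, a subunit of the protein that coats single-stranded DNA, rose in all 3 mimics, by 0.64 (limma adjusted p = 0.00229), 0.50 (0.0105) and 0.58 (0.00449) with miR-126, miR-143 and miR-150, and the miR-143 call was lost without miR-143 mimic replicate 4 (0.0538), control replicate 2 (0.0579) or control replicate 4 (0.0607). RPA1, the large subunit, rose with the miR-126 mimic by 0.94 (adjusted p = 0.00574) and with the miR-150 mimic by 0.71 (0.0272), the second of which was lost without miR-150 mimic replicate 2 (0.0856) and without control replicate 2 (0.0951), 3 (0.0887) or 4 (0.104). GINS1, part of the replicative helicase, fell with the miR-150 mimic by 0.88 (adjusted p = 0.0173), lost without control replicate 2 (0.0823) or 4 (0.0818). FEN1, the flap endonuclease of lagging-strand synthesis, fell with the miR-126 mimic by 0.69 (limma adjusted p = 0.0197). That call was lost in 5 of 6 fits (between 0.0552 and 0.0972, all but the fit without control replicate 3). FEN1 shares 49 exon bases with FADS2 on the same strand, a gene at a mean of 455 TPM, and 166 with TMEM258 on the other. RPA1 shares 156 with SMYD4 on the other strand. Reads in these overlaps are uncertain. With the libraries centred, RPA2 was not called with the miR-126 mimic (0.104) or the miR-143 mimic (0.0928), nor FEN1 with the miR-126 mimic (0.0728). With only the 2 groups in the fit, RPA2 was not called with the miR-143 mimic (0.0525), nor RPA2 (0.109), RPA1 (0.125) and GINS1 (0.142) with the miR-150 mimic. Without the short-transcript pair 6 were called higher and 1 lower with the miR-126 mimic, where more of all genes were called too, as the closing section gives. With the replicate block, the miR-126 mimic had 12 of the S phase genes called higher and 1 lower, 3 and 1 of the RB, E2F, DREAM and MuvB genes, 4 and 0 of the kinetochore and centromere genes, 1 and 0 of the anaphase-promoting complex genes, 1 and 1 of the entry and exit regulators, and 0 of the cohesin and condensin genes, where 11.8% of all genes were called higher and 5.11% lower.

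Transcript length went with the deviations of the 45 genes in several libraries, in both directions. The genes run from 725 bases (PTTG1) to 10811 bases (MKI67), as the mean length of their transcripts weighted by TPM. In replicate 4 of the miR-143 mimic and replicate 4 of the miR-150 mimic, the short-transcript pair, the deviation of a gene from its mean over the 12 libraries correlated with length across the 45 genes with Spearman's rho of -0.51 and -0.63, beside -0.40 and -0.55 across all genes with a length. In replicate 3 of the miR-150 mimic and replicate 2 of the miR-143 mimic rho over the 45 genes was 0.55 and 0.41, beside 0.15 and 0.29 across all genes, and in the other 8 libraries it lay between -0.21 and 0.34. Genes of a library are not independent replicates, and rho is given as a description. Without the pair, the same 5 genes were called with the miR-143 mimic, and with the miR-150 mimic 4 were called higher (KIF4A, RACGAP1, BUB1B and CDC25B) and 1 lower (NEK2). More of all genes were called with the miR-143 mimic in that fit too, and the share of all genes for miR-150 is not given here.

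**Figure D4:**
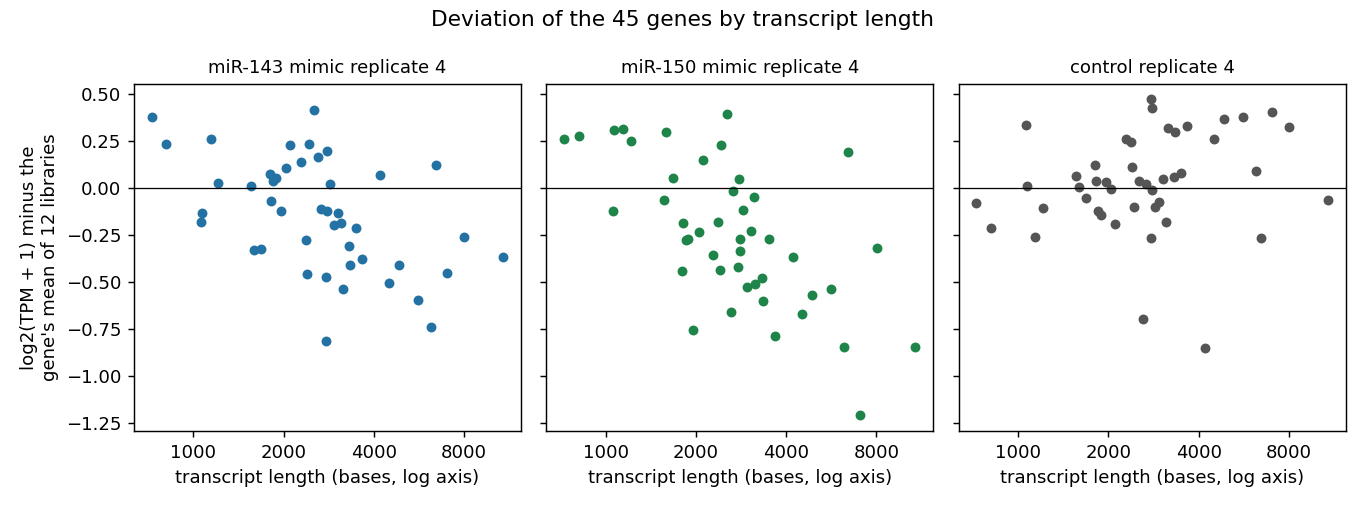
Deviation of log2(TPM + 1) from the gene's mean over 12 libraries (vertical axis) against transcript length in bases (horizontal log axis) for the 45 genes, with replicate 4 of the miR-143 mimic, of the miR-150 mimic and, for comparison, of the control. Points fall with length in both mimic libraries (rho -0.51 and -0.63) and do not in the control library (rho 0.29).

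The replicate number went with the level of several genes in every group. CCNA2, cyclin A2, which acts in S and G2 phase, measured 116, 60.0 and 112 TPM with the miR-126 mimic (numbers 2, 3 and 4 in turn), 128, 72.7 and 111 TPM with the miR-143 mimic, 109.8, 68.8 and 76.4 TPM with the miR-150 mimic, and 135, 78.4 and 130.2 TPM in the control. Number 3 was the lowest in all 4 groups, by 0.69 on the log2 scale below the mean of numbers 2 and 4. TACC3, which stabilises the kinetochore fibres, was lower in number 3 by 0.61 in the same way. Number 3 was lowest in all 4 groups for 8 of the 45 genes (17.8%), beside 9.43% of all genes: CCNA2, TACC3, BIRC5, AURKB, CCNB2, CDK1, CCNB1 and NDC80. It was highest in all 4 for 1 (2.22%), TTK, the checkpoint kinase MPS1, beside 18.9% of all genes. What the number marks is not given in the labels, and its part in the results was not tested beyond the block.

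**Figure D5:**
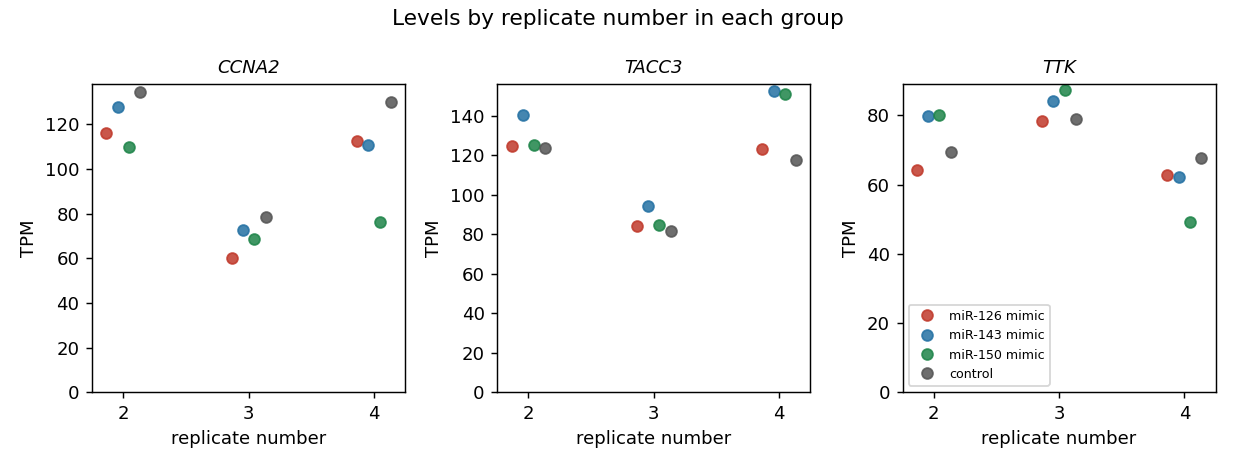
TPM (vertical axis, from 0) of CCNA2, TACC3 and TTK by replicate number (horizontal axis), with a point per library coloured by group. Number 3 is lowest in all 4 groups for CCNA2 and TACC3 and highest in all 4 for TTK.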

How the data were processed

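The data are 12 RNA sequencing libraries of HMEC-1 cells, 3 in each of 4 groups. The deposited table holds TPM for 187626 transcripts, each column summing to 1000000. The authors used kallisto, FastQC and sleuth with the build hg38 (GRCh38), per the submitters' processing notes; the sources used here give no version, transcript annotation, strand setting or filter. The labels' protocols speak of microRNA libraries, whereas the table holds whole transcripts. Because TPM are scaled by length and to a fixed total, a bias by length or a change in abundant transcripts stays in the values, and depth is unknown.

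Columns were matched to samples by name, with 0 columns unmatched. TPM were summed per gene symbol, leaving out 171 transcripts without a gene. Genes that reached 1 TPM in 3 or more libraries were tested on log2(TPM + 1), a scale on which fold changes of weakly expressed genes come out too small. The design allowed for a table of estimated counts; the unit was TPM, so limma 3.58.1 in R 4.3.3 was fitted to all 12 libraries, with group as the only term, a mean-variance trend and two-sided tests, adjusted by Benjamini-Hochberg with a threshold of 0.05. In simulated data, 57, 69 and 60 of 100 genes changed by 1 on the log2 scale were called for miR-126, miR-143 and miR-150 against the control. Of 100 genes changed by 2, 94, 96 and 92 were called, with 6, 8 and 11 false calls. The simulated noise was independent between libraries, unlike the residuals described below. A gene that was not called may still have changed. Alternatives were another pseudocount (0.1), no filter, 2 other scalings, a replicate block, the fit of 2 groups alone, and fits without single libraries or without the short-transcript pair.

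The labels do not say what replicate numbers mark. Residuals of same-numbered libraries (2, 3 and 4) correlated across genes with 0.29, 0.63 and 0.40 between miR-126 and control. Between miR-126 and miR-143 these values were 0.32, 0.66 and 0.37, between miR-126 and miR-150 they were 0.29, 0.55 and 0.28, and miR-143 with miR-150 gave 0.59, 0.63 and 0.74. All are above 0.1, so the numbers were taken to pair these libraries. The value of 0.74 is between the libraries of the short-transcript pair, so it need not reflect the number. Because the labels do not say what the number marks, the main calls stay those of the fit with group alone, and the block is an alternative.

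Gene positions, exon overlaps and untranslated regions came from GENCODE 29 on GRCh38, in which all 387 transcripts of the 45 genes were found by identifier, and promoters and microRNAs from RefSeq on GRCh38.p14. The 45 genes, their roles, the other gene lists and the tests were chosen with earlier results of these data known. Values in every library are given for the genes called against the control, the 2 largest rises and 2 largest falls in each of these comparisons and the 3 most abundant genes; BIRC5, CCNA2 and the paired-number examples were added after their values were seen. Promoters are printed for the described genes that hold both motifs, up to 5, by mean TPM.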

Additional observations from a re-analysis of the deposited data

How the results depend on the processing

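Alternatives were followed for 19 differences of single genes, those called in any comparison or among the 2 largest rises or falls against the control. All kept their direction under the 247 alternatives run. The fits with no filter, with the block or with only 2 groups cannot alter these fold changes, so a kept direction there is no evidence. The same holds without the short-transcript pair for miR-126 against the control. Of the 247, 183 stayed on the same side of the threshold, 52 lost a call and 12 gained one. Numbers of the 45 genes called against the control, for miR-126, miR-143 and miR-150, were 2, 5 and 2 as reported. They were 6, 3 and 4 with libraries centred on their median gene, 6, 5 and 5 without the short-transcript pair, and 6, 3 and 0 with only the 2 groups compared in the fit; for that 0 from limma, 9 were at an unadjusted p under 0.05. For miR-126 against miR-143, miR-126 against miR-150 and miR-143 against miR-150 they were 1, 2 and 2 as reported, 2, 5 and 4 centred, 2, 1 and 4 after quantile normalization, 8, 6 and 7 with the replicate block, 6, 4 and 3 without this pair, and 0, 0 and 0 with only 2 groups, where 12, 5 and 7 had an unadjusted p under 0.05. Without replicate 2, 3 or 4 of either group they ranged over 2 to 2, 3 to 4 and 0 to 3 against the control and 0 to 0, 0 to 3 and 1 to 3 between mimics, where 10 genes had an unadjusted p under 0.05 for miR-126 against miR-143 with all libraries. With the replicate block, 6, 7 and 9 were called against the control. By the rule that every correlation must exceed 0.1, the number was not taken to pair libraries for miR-143 and miR-150 against the control. Correlations there were 0.044, 0.65 and 0.17, and 0.073, 0.60 and 0.075 for numbers 2, 3 and 4. Number 3 thus correlated there as well, and the mimic libraries of number 4 are the short-transcript pair. Whether the number marks something shared by all 4 groups was not tested. In these 2 comparisons the block added calls of CDCA3 (higher) and AURKB (lower) for miR-143, and of BUB1B, CCNB1, CDC25B and CDCA3 (higher) and CENPA, FOXM1 and PRC1 (lower) for miR-150, and took away none of the calls reported. Over all genes, counts of 702, 457 and 456 against the control became 2331, 1775 and 1694 with the block and 1673, 266 and 57 with only 2 groups; 1835 for miR-126 and 707 for miR-143 without this pair; and 764 for miR-143 after quantile normalization. Between mimics, 346, 537 and 301 became 1515, 2599 and 1340 with the block and 187, 19 and 4 with only 2 groups, and 578 for miR-126 against miR-143 without this pair. Without single libraries they ranged over 214 to 472, 139 to 339 and 125 to 553 against the control and 77 to 183, 117 to 717 and 127 to 353 between mimics. Calls of all genes split into 464 higher and 238 lower for miR-126 against the control, and 354 and 547 with libraries centred; for miR-150 into 149 and 307, and 301 and 372 after quantile normalization; for miR-126 against miR-143 into 201 and 145, and 156 and 282 centred; for miR-126 against miR-150 into 427 and 110, and 224 and 329 centred; and for miR-143 against miR-150 into 218 and 83, and 198 and 126 centred. Median log2 fold changes of the 45 genes moved to -0.13 (miR-126 against control), -0.16 (miR-126 against miR-143) and -0.25 (miR-126 against miR-150) with libraries centred, and to 0.0885 (miR-150 against control) and -0.14 (miR-126 against miR-150) without this pair; without single libraries they ranged over -0.04 to 0.05, -0.10 to 0.03 and -0.13 to 0.0885 against the control and -0.07 to 0.11, -0.14 to 0.0899 and -0.08 to 0.15 between mimics. Fits of 2 groups have fewer libraries behind the spread, and the block takes up spread between numbers. The cause of the shifts was not tested. With 3 libraries a group and no depth in TPM, the smallest difference called against the control among the 45 genes was 0.43 on the log2 scale, beside a median residual SD of 0.27.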
